A study of Dreissena polymorpha with 11 samples.

Results

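The arrays compared were the 2 made from half-body samples of the zebra mussel Dreissena polymorpha and the 3 made from its gonads, 5 of the 11 arrays of a study that profiled tissues and larvae of untreated animals. They were chosen by title alone. Half-body 1 is labelled female and half-body 2 male. Male gonad 1 and male gonad 2 are labelled male, and female gonad 1 is labelled female. No animal of either group was treated, and age is given as not applicable. The labels do not say which side of the body was taken, whether it held gonad or how many animals were pooled. Nor do they name the animals, and where samples share one the p-values below measure technical spread only. Each sample was hybridised from 500 ng of total RNA to a single-dye (Cy3) array of 13654 probes made for 3541 sequences.

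The zebra mussel is a freshwater bivalve with separate sexes. Its gonad makes sperm or eggs, spreads through the soft body between other organs in the breeding season, and shrinks after spawning. A sample of the body can therefore hold many tissues, gonad among them, and in such bulk RNA fewer cells of a type and less RNA per cell cannot be told apart. The comparison asks which sequences carry more or less signal in a body sample than in isolated gonad.

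The files name each sequence by an identifier and give a gene symbol, RXR, for 1 of them, and 0 of the 3541 identifiers matched a gene of the RefSeq table. Tissue markers could therefore not be set against the labels, and no function is given to any other sequence. The identifiers fall into series by their first letters, with 11280 EY probes (2864 sequences), 1389 AM probes (437 sequences), 532 AJ probes (135 sequences) and 453 probes of other names. Values below are log2 signals relative to the array's 75th percentile over probes detected on all 9 adult arrays, which are these 5 with 2 of gill and 2 of digestive gland. A probe was called detected where the scanner software put most of its spots well above background.

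Half-body 1 and 2 detected 34.6% and 38.4% of the probes, against 33.0%, 41.2% and 35.5% on male gonad 1, male gonad 2 and female gonad 1. No spot was saturated, and detected probes with 2 spots had a median SD between spots of 0.063 to 0.085 on the 5 arrays. Signals of undetected probes did not sit at 1 level. With AM identifiers left out, probes dark on every adult array had medians of -12.43 and -13.01 on half-body 1 and 2, against -13.32, -13.85 and -13.23 on male gonad 1, male gonad 2 and female gonad 1. The floors of both half-body arrays were thus above those of all 3 gonad arrays, and their part in the results on dim probes was not tested.

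The sex labels of the half-body samples were set against the gonads before the tissues were compared. Probes were chosen on the gonad arrays alone, after their values had been seen, where female gonad 1 differed from both male gonads by over 2 log2 units. The half-body arrays took no part in the choice, and AM identifiers were left out. Of the probes, 106 from 59 sequences were high in male gonad, and 123 from 76 sequences were high in female gonad.

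Both half-body arrays lay nearer male gonad. The male-gonad-high probes had medians of -7.78 on half-body 1 and -6.99 on half-body 2, against -6.83, -6.92 and -10.78 on male gonad 1, male gonad 2 and female gonad 1. Half-body 1, labelled female, was nearer the male gonads than female gonad at 84 of these 106 probes (79.2%), and half-body 2 at 83 (78.3%). On the female-gonad-high probes the medians were -10.66 and -9.64 on half-body 1 and 2, against -11.36, -10.32 and -6.35 on male gonad 1, male gonad 2 and female gonad 1. There half-body 1 was nearer male gonad at 106 of 123 probes (86.2%) and half-body 2 at 95 (77.2%).

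Arrays of tissues other than gonad were set on the same lists. Gill 1 and 2 were nearer male gonad at 69 and 72 of the 123 female-gonad-high probes, and at 60 and 45 of the 106 male-gonad-high probes. Digestive gland 1, labelled female, was nearer male gonad at 75 and 48 of these probes, and digestive gland 2, labelled male, at 108 and 67. Half-body 1 lay nearer male gonad on both lists, against its label. The lists rest on 1 female gonad array, so signal peculiar to that array would also place other samples nearer male gonad. The label of half-body 1 could therefore not be judged from them, and its sex was not determined here. The groups below join both half-body samples whatever their sex, so no fold change rests on that label, except in the alternative with a term for sex.

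**Figure D1:**
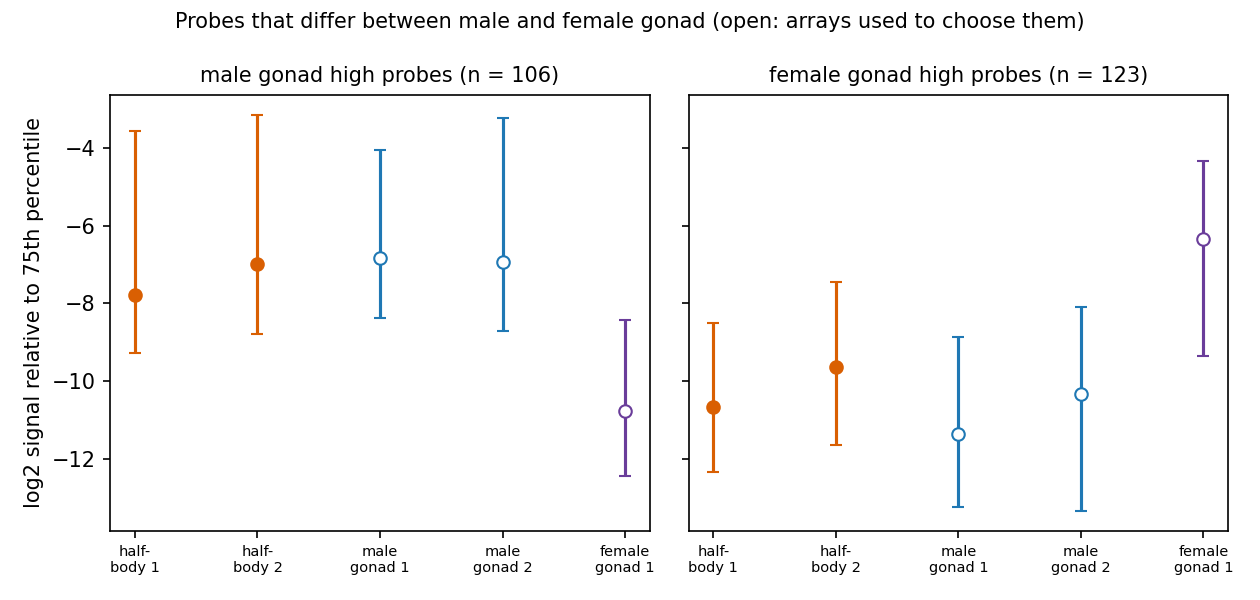
Median (point) and quartiles (bars) of the log2 signal relative to the 75th percentile, by array, over the 106 probes high in male gonad (left) and the 123 probes high in female gonad (right). Filled points are half-body arrays and open points the gonad arrays on which the probes were chosen. The medians of both half-body arrays lie nearer those of the male gonads than that of female gonad 1 in each panel.

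Single sequences, singled out after their values had been seen, lay the same way. AJ517697, with 4 probes among the male-gonad-high ones, had median signals of 0.38 and -0.19 on half-body 1 and 2, against 0.34, -0.69 and -8.32 on male gonad 1, male gonad 2 and female gonad 1. AJ517707, also with 4 such probes, had 0.71 and 0.97 on half-body 1 and 2, against 1.33, -0.63 and -8.89 on the same gonad arrays. Both half-body samples carried these sequences at about the level of male gonad. Digestive gland 2 was also high, at -1.30 for AJ517697 and -1.70 for AJ517707, while digestive gland 1 had -9.99 and -9.74. Of the female-gonad-high sequences, EY434180 with 5 probes had -12.38 and -10.11 on half-body 1 and 2, against -10.35, -10.06 and -2.98 on male gonad 1, male gonad 2 and female gonad 1. Only the last of these arrays held it at a high level, while digestive gland 1 and 2 had -5.73 and -10.30. Among sequences with at least 2 probes on a list, both half-body arrays were nearer male gonad for 14 of 20 male-gonad-high and 21 of 26 female-gonad-high sequences.

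A model of group means was fitted to the 9 adult arrays with limma, and half-body minus gonad was tested for each probe detected on both half-body arrays or on all 3 gonad arrays. With AM identifiers left out, 60 of 3731 probes (1.61%) passed an adjusted p of 0.05, of which 57 (1.53%) were higher in half-body samples and 3 (0.0804%) lower. With AM identifiers included, 43 of 4669 probes passed (0.921%), 42 higher (0.9%) and 1 lower (0.0214%), and all 43 were among the 60. The 60 probes came from 59 sequences, so that nearly every call rested on 1 probe of its sequence. Most calls lay at probes with signal on 1 side only, where the filter fixes or nearly fixes the direction. Of the 3170 probes detected on all 5 arrays, 238 (7.51%) lay above and 336 (10.6%) below all gonad values. These shares were near the 9.89% and 11.4% of all probes tested.

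These counts changed with each array left out. With AM identifiers left out, 39, 37 and 41 probes were called without male gonad 1, male gonad 2 and female gonad 1. With AM included, 0, 6 and 0 were called without the same arrays, against 43, and 363, 359 and 287 had an unadjusted p under 0.05. Without half-body 1 or half-body 2 the count went up, to 229 and 237 with AM left out and to 151 and 191 with AM included, where the lone half-body array was assumed to vary like the other groups.

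Of the 57 probes higher in half-body samples, 52 were detected on no gonad array. They were tested because both half-body arrays detected them, so that they could only be higher, and their number is no support for the direction. Their medians were -9.05 and -8.18 on half-body 1 and 2, against -13.33, -13.86 and -13.16 on male gonad 1, male gonad 2 and female gonad 1. Most gonad values lie near the floor given above, so each fold is a lower bound, taken against the lowest detected signal of each gonad array. The bounds ran from at least 2.06-fold to at least 28.3-fold higher, with a median of 7.11, and 42 of the 52 were over 4. With a floor at the lowest detected signal, which changes values of undetected probes only, limma called 22 probes with AM left out and 0 with AM included. With normexp or the deposited value table limma called 0 either way, and the cause was not tested. In the deposited values the column of gill 1, which is part of the fit, correlated with its scanner values at only 0.580.

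EY435675 had the largest of these bounds, at least 28.3-fold. Its called probe had -6.54 and -6.65 on half-body 1 and 2, against -13.27, -12.20 and -13.06 on male gonad 1, male gonad 2 and female gonad 1 (limma adjusted p = 0.00265). EY433771 had -7.98 and -5.48 on half-body 1 and 2, against -13.34, -13.86 and -13.21 on the gonad arrays in the same order (at least 25.7-fold, limma adjusted p = 0.00627). Both were among the 52 and were singled out after their values had been seen.

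The 52 probes were seldom backed by other probes of their sequences. The 52 sequences had 180 other probes, of which 21 (11.7%) were detected on both half-body arrays and 19 (10.6%) on all 3 gonad arrays, against 27.7% and 28.6% of all probes not of the AM series. Of the 52, 8 were detected on both gill arrays, 36 on neither, and 51 on neither digestive gland array. Over all probes, AM included, gill 1 and 2 detected 31.9% and 32.6%, and digestive gland 1 and 2 detected 34.3% and 38.9%. These 4 arrays also entered the spread by which the calls were made. The counts are therefore not independent of the calls and show no trait of the 52. Before any test, the sets with signal on 1 side were of similar size. In all, 85 probes were detected on both half-body arrays and no gonad array, and 86 on all 3 gonad arrays and no half-body array. Of the 292 other probes of the sequences in the first set, 9.59% were detected on both half-body arrays and 8.90% on all 3 gonad arrays. For the 221 other probes of the sequences in the second set these shares were 21.3% and 26.7%.

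**Figure D2:**
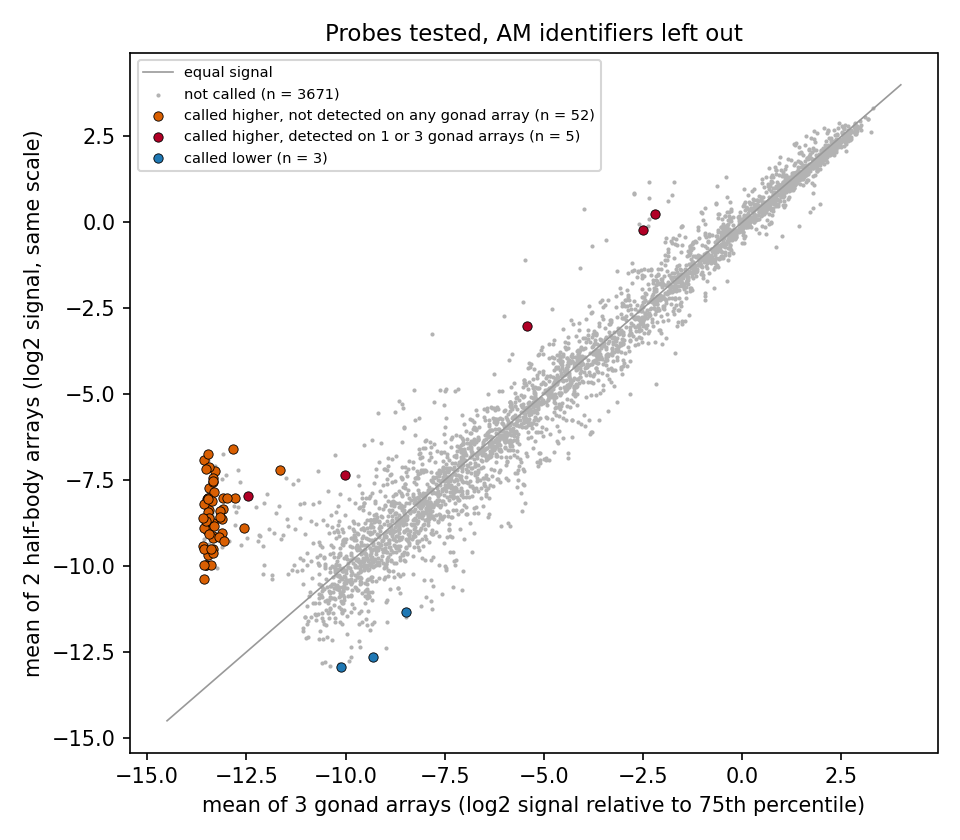
Mean log2 signal relative to the 75th percentile of each probe tested, with AM identifiers left out, in 2 half-body arrays (vertical axis) and 3 gonad arrays (horizontal axis). The line marks equal signal. The 52 called probes detected on no gonad array form a column at the left near the gonad floor, and 5 other higher and 3 lower calls are marked apart.

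Where a signal was measured on both sides, most half-body and gonad means lay within 1 log2 unit. Probes undetected on 1 side are left out here. The median difference is partly set by the scaling, which rests on 2954 of the probes summarised. Over the 3170 probes detected on all 5 arrays, with AM left out, the median difference of half-body minus gonad was -0.10, with quartiles of -0.34 and 0.23, and 2797 probes (88.2%) lay within 1 log2 unit. Differences beyond 2 log2 units were about as frequent upward as downward, at 33 and 32 probes. With AM included, over 3814 such probes, they were more frequent upward, at 48 against 32 probes. The 2 half-body values lay above all 3 gonad values at 238 of these probes (7.51%) and below at 336 (10.6%), near the 9.89% and 11.4% of all 3731 probes tested. A fit on these 3170 probes alone called 0 probes by limma, and 160 had an unadjusted p below 0.05.

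The fit on all 3731 probes called 4 probes detected on all 5 arrays, each higher in half-body samples. They belonged to EF194204, EY433852, EY433853 and EY434161. The probe of EF194204 had 0.28 and -0.73 on half-body 1 and 2, against -2.63, -2.49 and -2.39 on male gonad 1, male gonad 2 and female gonad 1, a difference of 2.28 ± 0.41 (SE, limma adjusted p = 0.0478). Its groups did not overlap. With AM identifiers included, the adjusted p of this probe was 0.0924.

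EF194204 was the most fully measured of these sequences. Medians over the probes of a sequence are given from here on with the scaling that includes AM identifiers. All 5 of its probes were detected on all 5 arrays, and at each the half-body values lay above the gonad values, with differences between 1.67 and 2.27. The median difference was 2.25, and 1.39 without half-body 1. The median over its probes was 0.71 and -0.77 on half-body 1 and 2, against -2.58, -2.46 and -2.08 on male gonad 1, male gonad 2 and female gonad 1. One of the probes is printed 25 times on the array, and it differed by 2.27 ± 0.45 (SE, limma adjusted p = 0.125 with AM included). The sequence was far lower on gill 1 and 2, at -12.09 and -12.25, and near the half-body level on digestive gland 1 and 2, at 0.14 and -0.82.

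EY433852 and EY433853 shared this distribution. EY433852 had median signals of -1.09 and -2.04 on half-body 1 and 2, against -4.20, -3.81 and -4.09 on male gonad 1, male gonad 2 and female gonad 1, over 2 tested probes that differed by 2.39 and 2.54. EY433853 had 0.46 and -0.05 on half-body 1 and 2, against -1.67, -1.73 and -2.57 on the same gonad arrays. Neither pair of groups overlapped. With AM left out, the called probes had limma adjusted p of 0.0274 in EY433852 and 0.0307 in EY433853, and with AM included 0.0667 and 0.0671. In EY433853, 2 of 3 tested probes differed by 2.41 and the other by only 0.46. Gill 1 and 2 had -11.16 and -10.66 for EY433852 and -11.29 and -11.80 for EY433853, far below both groups. Digestive gland 1 and 2 had -2.91 and -2.54 for EY433852 and -0.90 and -0.38 for EY433853, between half-body and gonad arrays.

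The called probe of EY434161 had -7.45 and -7.27 on half-body 1 and 2, against -9.87, -9.65 and -10.54 on male gonad 1, male gonad 2 and female gonad 1 (2.66 ± 0.36, SE, limma adjusted p = 0.0136). The other tested probe of EY434161 went the other way, at -0.33 with AM included (limma adjusted p = 0.994), so its probes disagreed. Of all 57 higher calls, 1 more was detected on a gonad array. It was a probe of EY436487, with -7.76 and -8.14 on half-body 1 and 2, against -13.33, -10.93 and -13.14 on male gonad 1, male gonad 2 and female gonad 1 (limma adjusted p = 0.0244).

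The 3 lower calls came from EY436698 and EY435697, and no called probe among them was detected on either half-body array. They were tested because all 3 gonad arrays detected them, so a lower value was likely from the start and gives no support for the direction. It was not certain, since the lowest detected signals differ between arrays. With AM left out they were -10.35 and -11.05 on half-body 1 and 2. On male gonad 1, male gonad 2 and female gonad 1 they were -11.22, -11.89 and -11.13. EY436698 was lower at all 5 of its probes. Their median was -12.30 and -13.13 on half-body 1 and 2, against -9.91, -8.83 and -10.22 on male gonad 1, male gonad 2 and female gonad 1. Every gonad value lay above both half-body values, and the median of the 5 bounds was at least 2.12-fold lower in half-body samples. The 2 called probes were at least 2.63-fold lower (limma adjusted p = 0.029) and at least 1.51-fold lower (limma adjusted p = 0.0322).

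The called probe of EY435697 had -11.38 and -11.26 on half-body 1 and 2, against -9.11, -8.03 and -8.24 on male gonad 1, male gonad 2 and female gonad 1, at least 4.71-fold lower in half-body samples (limma adjusted p = 0.0142). It was the lower call that passed with AM identifiers included as well (limma adjusted p = 0.0352). Gill 1 and 2 had -10.59 and -10.40 for EY436698, and digestive gland 1 and 2 had -9.88 and -9.09, all inside or near its range on the gonad arrays.

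When probes of a sequence were averaged first, 44 of 1957 sequences passed with AM included (2.25%), 43 higher (2.2%) and 1 lower (0.0511%), and 50 of 1592 sequences passed with AM left out (3.14%), 48 higher (3.02%) and 2 lower (0.126%). Of the 50, 43 had a single tested probe. Among the 7 with more than 1 tested probe was EY435882 (limma adjusted p = 0.01), with 1 probe detected on no gonad array, with a bound of at least 4.46-fold, and 1 detected on a single gonad array. Its median signal was -9.24 and -8.53 on half-body 1 and 2, against -13.28, -11.98 and -12.03 on male gonad 1, male gonad 2 and female gonad 1. The 2 lower sequences were EY435697 and EY436698.

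Sequences whose probes moved together were then ranked by size, without regard to calls. Of 1022 sequences outside the AM series with at least 2 tested probes, 47 were higher and 67 lower in half-body samples by the rule that all tested probes differ one way and most do not overlap. The ranks use fitted differences, which depend on background where a side is undetected. Of the 7 highest, EY435593 was detected on no gonad array at both tested probes and EY435882 and EY434638 at 1 each, and the other 4 had median differences of 2.41 to 2.75. Not all of these 4 were detected throughout. AJ517693 had 1 of 3 tested probes detected on all 5 arrays, and that probe differed by 0.40. EY436658 had 3 of 4, and its median difference was 1.53 without male gonad 2. Of the 7 lowest, EY436698, EY435697 and AJ517614 were undetected on both half-body arrays at every tested probe, and the other 4 had median differences of -2.87 to -2.62. Among those 4, EY435000 had 0 of 2 tested probes detected on all 5 arrays and EY435531 had 1 of 3. In all, 2 of the highest and 1 of the lowest held a probe called in the fit with AM included.

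EY435593 was first among the higher ones. It had -7.28 and -7.24 on half-body 1 and 2, against -13.28, -13.60 and -12.62 on male gonad 1, male gonad 2 and female gonad 1, at least 18.1-fold higher by the median of its 2 tested probes, without a call (lowest limma adjusted p of its probes 0.701). Gill 1 had -1.76 for it and gill 2 had -10.53, so that arrays of another tissue differed more than the groups compared. EY435962 was first among the lower ones, with -8.82 and -8.12 on half-body 1 and 2, against -6.99, -4.75 and -5.04 on male gonad 1, male gonad 2 and female gonad 1. All 3 of its probes were detected on all 5 arrays, and none passed (lowest limma adjusted p 0.639).

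**Figure D3:**
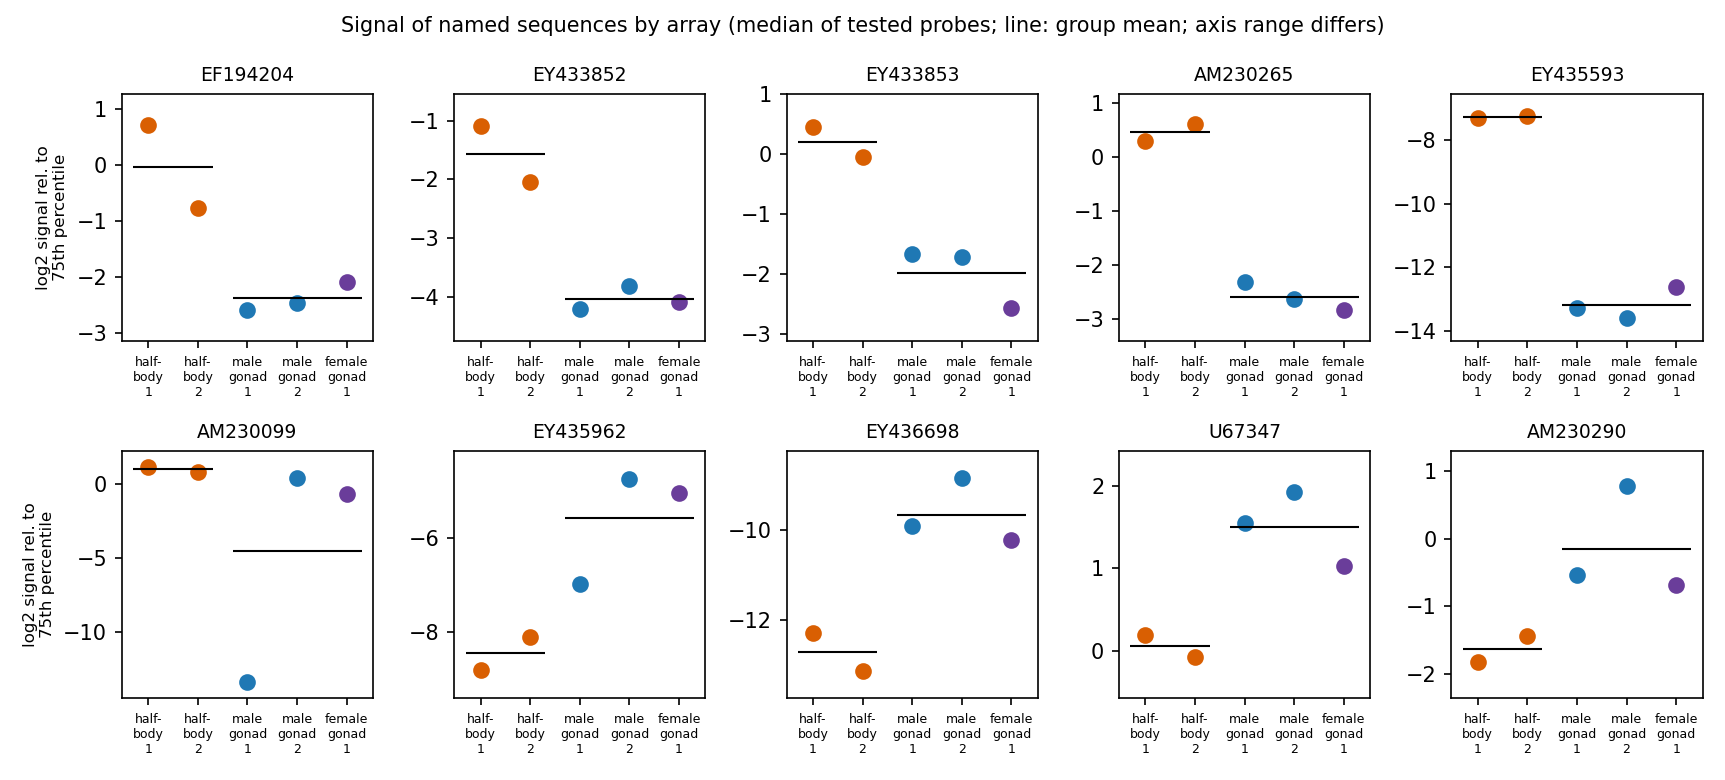
Log2 signal relative to the 75th percentile of 10 sequences on each half-body and gonad array, as the median of the tested probes. Orange points are half-body arrays, blue points male gonad and purple points female gonad, lines are group means, and the axis range differs between panels. AM230099 has 1 low array, male gonad 1 at -13.37, while in the other panels the groups lie apart.

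Among the 22 probes printed 25 times, 14 were tested, and the half-body values lay above all gonad values at 2 of them and below at 2. Over all 4669 probes tested these shares were 8.4% and 10.1%, and 14 probes are too few to be set against them. Of the 2 below, that of AF508218 was detected on neither half-body array. The highest difference of the 14 was that of EF194204, above. The lowest was that of U67347, with -0.53 and -0.35 on half-body 1 and 2, against 1.14, 1.88 and -0.07 on male gonad 1, male gonad 2 and female gonad 1, a difference of -1.43 ± 0.77 (SE, limma adjusted p = 0.994). The other 5 probes of U67347 differed by -1.60 to -1.40, of which 1 had no value on female gonad 1, and none passed. Over all 6 its median was 0.19 and -0.07 on half-body 1 and 2, against 1.55, 1.93 and 1.02 on male gonad 1, male gonad 2 and female gonad 1.

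RXR, the retinoid X receptor, is a nuclear receptor that pairs with other nuclear receptors, and in gastropod snails its activation by organotin compounds is linked with male organs forming in females. It had 6 probes, of which 2 and 3 were detected on half-body 1 and 2, against 5, 2 and 6 on male gonad 1, male gonad 2 and female gonad 1. Of the 3 probes tested, 1 had -8.63 and -9.56 on half-body 1 and 2, against -10.59, -12.07 and -10.48 on the gonad arrays in that order (difference 1.95, limma adjusted p = 0.53). The other 2 tested probes differed by -0.46 and -0.50 (limma adjusted p = 0.994 each). The probes of RXR thus disagreed in direction and none passed.

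AM identifiers were compared apart, since they varied between arrays of 1 tissue far more than the rest. Over the 938 AM probes tested, the median signal was -7.25 and -5.90 on half-body 1 and 2, against -9.40, -3.61 and -8.33 on male gonad 1, male gonad 2 and female gonad 1. Both half-body arrays lay inside the span of the gonad arrays. Half-body arrays averaged -6.58 ± 0.96 (SD, n = 2 arrays) and gonad arrays -7.11 ± 3.08 (SD, n = 3 arrays), a difference of 0.54 with a two-sided exact permutation p of 1, in a design that cannot give a p below 0.2. The sign turned when half-body 2, male gonad 1 or female gonad 1 was left out, at -0.14, -0.61 and -0.07, and the difference was 1.21 without half-body 1 and 2.29 without male gonad 2.

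EY probes had medians of -4.93 and -4.48 on half-body 1 and 2, against -4.96, -4.22 and -4.54 on male gonad 1, male gonad 2 and female gonad 1. AJ probes had -5.52 and -5.43 on half-body 1 and 2, against -5.47, -5.61 and -5.30 on the same gonad arrays. Across the AM probes, which are not independent replicates, half-body 1 and 2 correlated at 0.867, against 0.552 for the pair of male gonads and 0.947 for male gonad 1 with female gonad 1. Across the other probes tested, half-body 1 and 2 correlated at 0.967, half-body with gonad arrays at 0.929 to 0.96, and gonad arrays among themselves at 0.947 to 0.955. Half-body minus gonad had medians of 0.58 over AM, -0.12 over EY and -0.07 over AJ probes.

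**Figure D4:**
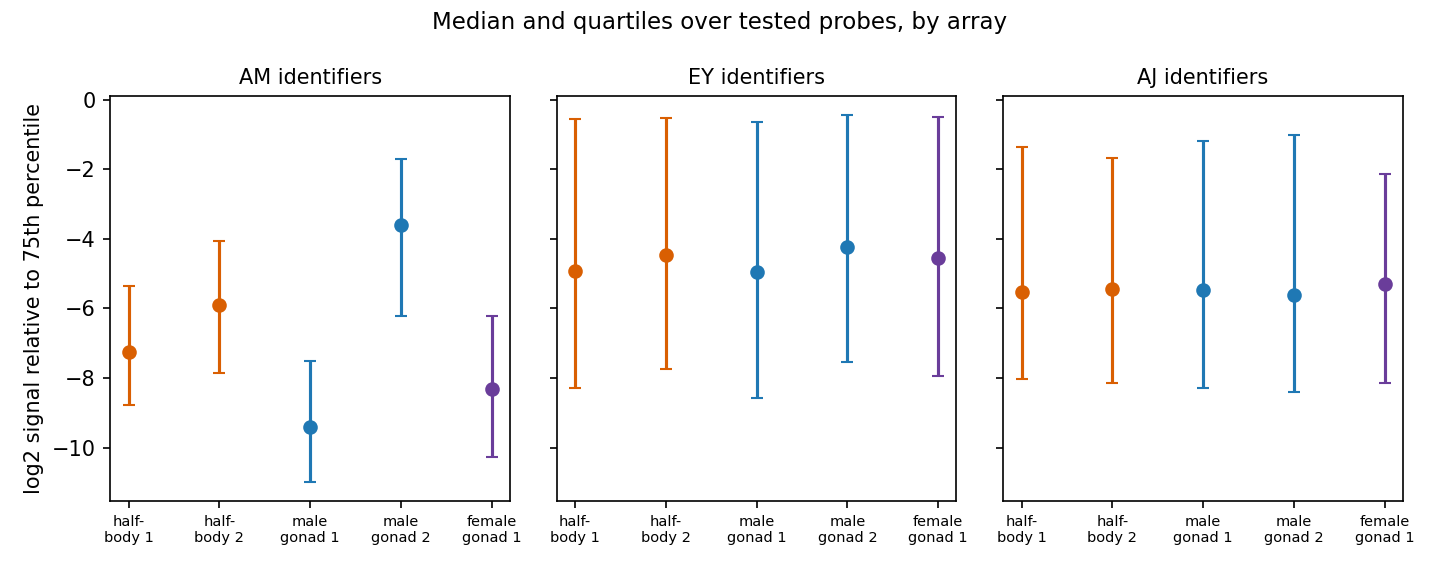
Median (point) and quartiles (bars) of the log2 signal relative to the 75th percentile over the tested probes of the AM, EY and AJ series, by array, with half-body arrays in orange, male gonad in blue and female gonad in purple. AM medians run from -9.40 on male gonad 1 to -3.61 on male gonad 2 with both half-body arrays between, while EY and AJ medians each stay within 1 log2 unit.

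In the limma fit with all identifiers, 0 of the 938 AM probes passed, with 20 below an unadjusted p of 0.05, and the half-body values lay above all gonad values at 34 (3.62%) and below at 40 (4.26%), under the 8.4% and 10.1% of all 4669 probes. Of 267 AM sequences with at least 2 tested probes, 7 were higher and 8 lower by the same rule of probes moving together. The 4 highest had median differences from 2.15 to 5.52 and the 4 lowest from -2.84 to -1.48. The -2.84 is that of AM230251, with 1 of 3 tested probes undetected on both half-body arrays.

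AM230265 had the lowest adjusted p of the 4 highest. It had 0.31 and 0.60 on half-body 1 and 2, against -2.30, -2.63 and -2.83 on male gonad 1, male gonad 2 and female gonad 1, and its 4 probes, detected on all 5 arrays, differed by 2.59 to 4.29 (lowest limma adjusted p 0.102). Its values were close within each group, unlike those of the AM series as a whole. AM230099 had a larger difference, 5.52, which rested on 1 array. It had 1.11 and 0.79 on half-body 1 and 2, against -13.37, 0.34 and -0.69 on male gonad 1, male gonad 2 and female gonad 1, and the difference was 1.18 without male gonad 1 (limma adjusted p = 0.994 with it).

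Of the lower AM sequences, AM230251 had -11.85 and -9.74 on half-body 1 and 2, against -8.35, -8.95 and -5.65 on male gonad 1, male gonad 2 and female gonad 1. AM230290 had -1.83 and -1.44 on half-body 1 and 2, against -0.54, 0.77 and -0.68 on the same gonad arrays, with both of its probes detected on all 5. The groups did not overlap in either, and no probe of either passed (lowest limma adjusted p 0.994 and 0.94).

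Each slide of these arrays held both groups. Half-body 1 and male gonad 1 lay on 1 slide, and half-body 2, male gonad 2 and female gonad 1 on another. With AM left out, all 60 called probes had the same sign on both slides, arrays that also made the calls. For the 52 detected on no gonad array and the 3 lower calls the filter had fixed or nearly fixed the direction, so their agreement is no support. With the slide as a block, limma called 71 probes with AM left out and 20 with AM included. The labelled sex of the half-body samples follows the slide, so those effects cannot be told apart.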

How the data were processed

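Single-dye Agilent arrays of 11 samples were deposited as scanner files. Per the file headers, their intensity values come from Agilent software (Feature Extraction 10.5.1.1), background-subtracted and spatially detrended per array and not scaled across arrays. The authors also deposited a value table of log2 values, whose scaling, centring and direction are not given in the sources used here. Its columns for the 5 arrays correlated with the scanner log2 values at 0.984 to 0.991, with medians of 3.05 to 3.26. The column of gill 1, an array also in the fit, correlated at only 0.580 and had a median of 4.33. With the deposited values the median SE was 1.37 with AM left out, against 0.52 in the main fit. With AM included it was 1.53, against 0.61. The part of gill 1 in these SEs was not tested. Main results rest on the scanner values, and the deposited values entered the alternatives alone.

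Control spots and 12 to 73 outlier-flagged spots per array were left out, spots of a probe were averaged as log2 processed signal, and each array's 75th percentile was subtracted, taken over 3234 probes detected on all 9 adult arrays (2954 with AM identifiers left out). Group means of gill, digestive gland, gonad and half-body arrays were fitted by lmFit and eBayes of limma 3.58.1 (R 4.3.3) with 5 residual degrees of freedom, with Benjamini-Hochberg adjustment over all probes tested and calls at an adjusted p below 0.05. Larvae, from another RNA amount, were left out, and the array larvae 1 detected only 0.78% of the probes. Of the tested probes, 32 lacked a value on 1 of the 5 arrays (29 with AM left out), and limma fitted those on the other arrays, as for U67347. The files hold no mean signal, so the normexp alternative used median signals. The number of arrays limits the precision.

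Named sequences had at least 2 tested probes, all in 1 direction, most without overlap between the groups and at least 2 detected on every array of the higher side. The rule names the 7 highest and 7 lowest outside the AM series, the 4 highest and 4 lowest within it, RXR, and the extreme probes with 25 spots; a few are printed and the rest summarised. The arrays, the rule and the separation of AM identifiers were chosen with earlier results of these data known, and other sequences were singled out after their values were seen. Versions of other tools were Python 3.11.15, scipy 1.17.1, pandas 2.3.3 and numpy 2.4.6. The fit was tested on simulated data, with normal noise about each probe's mean and no detection floor. That test does not bear on calls at probes undetected on 1 side.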

Additional observations from a re-analysis of the deposited data

Results flagged for a closer look

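By the labelled sex, AF508224 and AF508222 differed between the half-body samples in the opposite direction to the gonads. The probe of AF508224 printed 25 times was 4.58 log2 units higher on half-body 2, labelled male, than on half-body 1, labelled female, while male gonad 1 and male gonad 2 differed from female gonad 1 by -5.93 and -6.28 units. Its values were -3.81 and 0.77 on half-body 1 and 2, against -2.92, -3.27 and 3.01 on male gonad 1, male gonad 2 and female gonad 1. The probe of AF508222 printed 25 times was 2.61 units higher on half-body 2 than on half-body 1, while male gonad 1 and 2 differed from female gonad 1 by -4.40 and -3.96 units. By its median, EY434180 was 2.27 units higher on half-body 2 than on half-body 1, while male gonad 1 and 2 differed from female gonad 1 by -7.37 and -7.08 units. Its value on half-body 1, -12.38, lay near the floor of that array, where dark probes had a median of -12.43. AJ517697 went the other way, at -0.57 on half-body 2 minus half-body 1, while male gonad 1 and 2 differed from female gonad 1 by 8.66 and 7.64 units. They were marked because the labelled sexes differ in opposite directions in the tissues, which is not particular to them: 17 of 26 female-gonad-high and 8 of 20 male-gonad-high sequences did so. Half-body samples have 1 array of each labelled sex, the label of half-body 1 was not settled as described above, and the difference between the tissues was not tested.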

How the results depend on the processing

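With AM identifiers included, the 43 called probes became 0 with the percentile over all probes, normexp, the deposited value table, a floor at the lowest detected signal, only probes detected on all 5 arrays, or all 11 arrays, with 211, 221, 77, 264, 152 and 25 probes at an unadjusted p under 0.05. The count was 18 with median scaling, 26 with quantile normalization, 12 with only the 5 arrays, 6 with male and female gonad as separate groups, 20 with slides blocked, 17 with a term for sex and 6 at an adjusted p below 0.01, and it ran from 0 to 191 when 1 array was left out. With AM left out, the 60 became 0 with normexp, the deposited value table, only probes detected on all 5 arrays, or all 11 arrays, with 243, 78, 160 and 26 at an unadjusted p under 0.05. It was 22 with the floor and 26 at an adjusted p below 0.01, and it ran from 37 to 237 when 1 array was left out. The floor and the restriction to probes detected on all 5 arrays remove the values of undetected probes by construction; the cause of the other changes was not tested. The other alternatives gave 42 to 55 calls with AM included and 42 to 90 with AM left out. Among them, adding the array larvae 2 alone to the adult arrays gave 43 and 60. All 11 arrays also take in larvae 1, which detected 0.78% of the probes. The median difference over all probes tested with AM included was -0.05, and it was -0.32 with the percentile over all probes and 0.15 with median scaling; with AM left out these were -0.10, -0.29 and 0.02. The difference in median AM level ran from -0.61 to 2.29 when 1 array was left out and was 0.54 to 0.74 under other scalings. Over the 26 named sequences, 33 of 563 values moved by more than the spread between replicates. No sign turned, which says little, since most were chosen for groups that do not overlap and several alternatives leave the difference itself as it was. With a minimum gonad difference of 1 or 3 log2 units, added after seeing the data, half-body 1 was nearer male gonad at 68.9% and 89.1% of the male-gonad-high probes and half-body 2 at 71.3% and 97.8%. On the female-gonad-high probes these shares were 81.8% and 90.2% for half-body 1 and 71.5% and 72.1% for half-body 2. On probes detected on all 5 arrays the male-gonad-high and female-gonad-high shares were 77.8% and 98.0% for half-body 1 and 75.9% and 69.4% for half-body 2. No paired analysis was possible because both half-body titles end in the same replicate number, so the groups share fewer than 2 replicate numbers. Slides, which hold both groups, were used as a block instead, with 20 calls with AM included and 71 with AM left out.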
